A study of Mus musculus with 10 samples.

Results

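The let-7 and miR-98 family was followed here in the small RNA of mouse spermatozoa, as 9 miRNA hairpins that stand for 9 mature miRNA names: mmu-let-7a-1, mmu-let-7b, mmu-let-7c-1, mmu-let-7d, mmu-let-7e, mmu-let-7f-1, mmu-let-7g, mmu-let-7i and mmu-mir-98, written below without the prefix for mouse and with miR-98 for the last. They were chosen by name, with 1 hairpin for each mature name, and they are 9 of the 1136 miRNA hairpins with a read in any sample and of the 1470 annotated features in all. The spermatozoa came from C57BL/6J males that received from 4 weeks of age, for 10 weeks, either a control diet with 10% of kcal as fat (CD-F0, 5 samples) or a high-fat diet with 42% of kcal as fat (HFD-F0, 5 samples). Mature sperm were taken from the tail of the epididymis and the vas deferens, and RNA of 18 to 30 nt was sequenced. The strain, the age at the start and the length of feeding were shared by both groups. The labels do not state whether each sample was 1 mouse, so the p-values below measure the spread between these samples only. Levels are given as RPM, the reads of a hairpin scaled to a common total of clean reads (reads per 1e6 clean reads), with both arms of the hairpin counted together.

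let-7 was found in the nematode as a regulator of developmental timing, and the let-7a sequence is the same from worms to mammals. In mammals the mature miRNAs accumulate as cells differentiate, the RNA-binding protein Lin28 blocks their maturation in stem cells and early germ cells, and their targets include Hmga2, Ras and Myc genes and components of the insulin and IGF signalling pathway. In the testis, let-7 levels go up as spermatogonia respond to retinoic acid, and raised let-7 impairs glucose tolerance in mice.

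The mature sequences are shown because the assignment of reads to the members turns on very few bases. They are the 5p arms from the RefSeq annotation of GRCm38.p6, written 5′ to 3′ with the seed, bases 2 to 8, in capitals.
let-7a-5p: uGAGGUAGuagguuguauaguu
let-7b-5p: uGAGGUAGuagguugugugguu
let-7c-5p: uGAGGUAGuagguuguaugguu
let-7d-5p: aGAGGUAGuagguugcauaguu
let-7e-5p: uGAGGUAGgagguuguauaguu
let-7f-5p: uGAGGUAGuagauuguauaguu
let-7g-5p: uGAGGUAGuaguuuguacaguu
let-7i-5p: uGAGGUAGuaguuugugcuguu
miR-98-5p: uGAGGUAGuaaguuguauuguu

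All 9 share the seed GAGGUAG, so they would pair with the same seed sites in target RNAs. Only 11 names among the 1738 mature rows of the annotation carry this seed, and the remaining names are let-7k and miR-1961. Counted from 1 at the 5′ end with the base of let-7a first, let-7c differs from let-7a by A19G, let-7e by U9G and let-7f by G12A. let-7b carries A17G and A19G, let-7d U1A and U16C, let-7g G12U and U18C, and miR-98 G11A and A19U. let-7i is the most distant of them, with G12U, A17G, U18C and A19U.

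A second set is shown for the names that lie near the family without being members of it. The sequence of let-7j has the seed GAGGUAU and is let-7i with G8U and a longer 3′ end, let-7k is a shorter RNA with the let-7 seed, and miR-202-3p, a miRNA known from the gonads, has the seed of let-7j.
let-7j: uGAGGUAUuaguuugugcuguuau
let-7k: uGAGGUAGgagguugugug
miR-202-3p: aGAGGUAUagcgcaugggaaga

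The hairpins lie at several places of the mouse genome (GRCm38.p6 positions, with GENCODE M21 genes of the same build). let-7a-1 at chr13:48538179-48538272, let-7f-1 at chr13:48537829-48537917 and let-7d at chr13:48536012-48536114 are all on the minus strand, in exons of the lincRNA 6720427I07Rik. The gap between let-7a-1 and let-7f-1 is 261 bases and the gap between let-7f-1 and let-7d is 1714 bases. let-7b, at chr15:85707319-85707403 on the plus strand, lies in an exon of the non-coding gene Lncppara, 621 bases from the copy let-7c-2. let-7c-1, at chr16:77599657-77599750 on the plus strand, lies in an intron of Mir99ahg, 656 bases from mir-99a. let-7e, at chr17:17830352-17830444 on the plus strand, lies in an intron of Spaca6, a gene needed for the fusion of sperm and egg, 367 bases from mir-125a. let-7g, at chr9:106178840-106178927 on the plus strand, lies in an intron of Wdr82. let-7i, at chr10:122985640-122985724 on the minus strand, lies in an exon of the transcribed pseudogene D630033A02Rik. miR-98, at chrX:151913214-151913321 on the plus strand, lies in an intron of Huwe1, 785 bases from the copy let-7f-2.

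let-7a, let-7c and let-7f each have another hairpin, numbered -2, with the same 5p sequence. The authors' program splits a read that fits several hairpins, and the copies therefore hold nearly equal values. The reads of let-7a-1 exceeded those of let-7a-2 by 0.527% to 1.06% of their sum in all 10 samples. let-7c-2 exceeded let-7c-1, and let-7f-2 exceeded let-7f-1, in all 10 samples, and the difference of -1 minus -2 was -1.79% to -1.22% of the sum for let-7c and -1.72% to -1.30% for let-7f. The level of 1 hairpin of these names is thus about an equal share of the reads of the name, and levels with the copies added are given where members are compared with each other.

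Each CD-F0 library held 30431401 to 31586854 clean reads and each HFD-F0 library 29558751 to 32178088, of which 14.5% to 23.5% were miRNA reads. At this depth the counting error is small beside the spread between samples: the lowest value of the rarest member, miR-98 in CD-F0 replicate 1, was 167 RPM with a 95% Wilson interval of 162 to 172, which covers counting error only. No pair of the 10 libraries was alike within sampling noise. The share of clean reads matched to the genome was 64.9% in CD-F0 replicate 1, 68.6% in replicate 5 and 69.2% in replicate 4, against 74.8% and 75.2% in CD-F0 replicates 2 and 3 and 73.3% to 74.7% in the HFD-F0 group. All reads of the 9 members were listed as matched to the genome. The male germ line miRNA list, which holds miR-34b, miR-34c, the miR-449 hairpins, miR-191 and testis miRNAs of the X chromosome, had all 10 of its hairpins listed in every sample, with a summed level of 16369 to 19610 RPM in the CD-F0 group and 13084 to 24157 RPM in the HFD-F0 group. Lists of miRNAs typical of epithelium, smooth muscle and blood cells were also present, with no hairpin at 0 in any sample, so the samples labelled as spermatozoa hold miRNAs that are known from other cells too. In such bulk samples, fewer cells of a type and less RNA per cell cannot be told apart.

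The family was among the most abundant miRNAs of these samples. let-7g ranked 4th of all hairpins by its mean over the 10 samples, and its rank in single samples was 3 to 5. Above it stood only mir-143, a smooth muscle miRNA, with 25077 ± 3255 RPM in CD-F0 and 27437 ± 7690 RPM in HFD-F0 samples (SD, n = 5), the widely expressed mir-21a with 12071 and 12079 RPM, and mir-449a, a miRNA of spermatogenesis and ciliated cells, with 7107 and 5606 RPM. let-7a-1 had rank 6, let-7c-1 rank 9 and let-7b rank 10, while the copies let-7a-2 and let-7c-2 took ranks 7 and 8. Further down were let-7f-1 at rank 16, let-7i at 28, let-7d at 33, let-7e at 55 and miR-98 at 95. Of the names near the family, let-7j had rank 39, let-7k rank 163 and mir-202 rank 195.

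**Figure D1:**
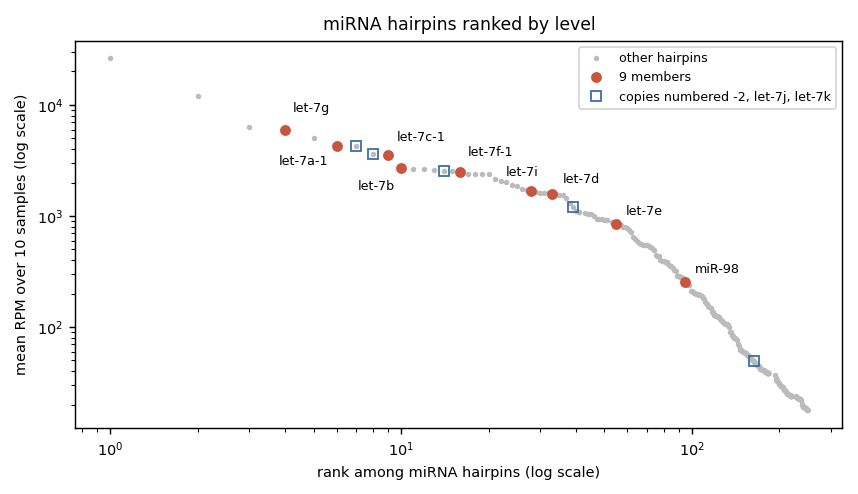
Mean level of each miRNA hairpin over the 10 samples (RPM, log scale) against its rank (log scale), with the 9 members as filled points, the copies numbered -2, let-7j and let-7k as squares and other hairpins in grey. let-7g stands at rank 4, all members other than miR-98 are within the first 55 ranks, and miR-98 is at rank 95.

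Because the 5p arms have the same length, RPM levels of the members were compared without a correction for length. Differences between sequences in ligation or amplification were not measured, nor were reads assigned to a member that differs by 1 base. let-7g exceeded let-7a-1 by 0.48 ± 0.18 on the log2 scale (mean and SD over 10 samples) and in all 10 samples. let-7c-1 was above let-7b by 0.39 ± 0.08, also in all 10 samples, and let-7a-1 was above let-7c-1 in 9 of 10. The steps from let-7f-1 to let-7i (0.53 ± 0.34), from let-7d to let-7e (0.87 ± 0.18) and from let-7e to miR-98 (1.73 ± 0.18) held in all 10 samples. let-7b and let-7f-1 did not differ beyond their spread (0.14 ± 0.39, let-7b higher in 8 of 10), and neither did let-7i and let-7d (0.12 ± 0.30, let-7i higher in 7 of 10).

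With the copies added, let-7a became the most abundant name, with a mean of 7136 RPM in the CD-F0 group and 9941 RPM in the HFD-F0 group. It was followed by let-7c with 6295 and 8059 RPM, let-7g with 5243 and 6658 RPM and let-7f with 4055 and 6037 RPM. let-7b, let-7i, let-7d, let-7e and miR-98 then stood in that order. On this scale 7 of the 8 neighbouring steps were larger than their spread over the 10 samples, and the exception was again let-7i against let-7d.

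The diet groups were then compared for each member, a question that the design of the study addresses for all small RNAs of sperm. All 9 members had a higher mean RPM in the HFD-F0 group, and the log2 fold changes in edgeR's quasi-likelihood test, a count model fitted over all 814 features that passed a filter on low counts, lay between 0.08 and 0.49. let-7f-1, let-7d, let-7a-1 and let-7e had unadjusted p at or under 0.05. None of the 9 reached the study's thresholds, an unadjusted p at or under 0.05 together with a log2 fold change of at least 1 in size, and none had a Benjamini-Hochberg adjusted p at or under 0.05 among the 814 features.

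let-7f-1, whose miRNA has been studied in endothelial cells and vessel growth, had 1497, 2347, 2472, 1691 and 1976 RPM in CD-F0 replicates 1 to 5 and 3034, 3017, 2551, 3423 and 2840 RPM in HFD-F0 replicates 1 to 5. The lowest HFD-F0 sample was above the highest CD-F0 sample. The mean was 1997 ± 416 RPM in CD-F0 and 2973 ± 318 RPM in HFD-F0 samples (SD, n = 5), a ratio of 1.49 (p = 0.00794, exact permutation over every assignment of the samples, two-sided, the smallest p it can give). Its log2 fold change in edgeR was 0.49 ± 0.15 (SE), with an adjusted p of 0.225, the lowest of the family.

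let-7a-1, the hairpin of the sequence shared with the worm, had 3151, 3944, 4170, 3112 and 3592 RPM in the CD-F0 samples and 5524, 5662, 4369, 5161 and 4313 RPM in the HFD-F0 samples. The groups did not overlap, and the nearest samples were CD-F0 replicate 3 and HFD-F0 replicate 5. The means of 3594 ± 470 and 5006 ± 634 RPM (SD, n = 5) had a ratio of 1.39 (exact permutation p = 0.00794). The edgeR log2 fold change was 0.39 ± 0.13 (SE), with an adjusted p of 0.250.

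let-7e, in the cluster with mir-99b and mir-125a, had 567, 829, 850, 626 and 713 RPM in the CD-F0 samples and 1064, 1050, 894, 993 and 939 RPM in the HFD-F0 samples. These groups were also apart, with the HFD-F0 samples close to each other and the CD-F0 samples more spread. The mean of 717 ± 124 RPM stood against 988 ± 72.2 (SD, n = 5), a ratio of 1.38 (p = 0.00794, exact permutation test). In edgeR the log2 fold change was 0.38 ± 0.13 (SE), with an adjusted p of 0.293.

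let-7d, known for repressing Hmga2 in lung epithelium, had 1154, 1588, 1600, 1019 and 1008 RPM in the CD-F0 samples and 2136, 2005, 1750, 2052 and 1519 RPM in the HFD-F0 samples. HFD-F0 replicate 5 lay below CD-F0 replicates 2 and 3, and the other 4 HFD-F0 samples were above all CD-F0 samples. The means were 1274 ± 298 and 1892 ± 254 RPM (SD, n = 5), a ratio of 1.49 (p = 0.0238, exact permutation test). Its edgeR log2 fold change of 0.48 ± 0.16 (SE) had an adjusted p of 0.250.

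For let-7g, the most abundant single hairpin of the family and a tumour suppressor studied in lung, the CD-F0 samples held 3936, 5849, 5423, 5861 and 5148 RPM and the HFD-F0 samples 7713, 7219, 6319, 6438 and 5600 RPM. CD-F0 replicate 1 was the lowest sample, and HFD-F0 replicate 5 lay within the range of the CD-F0 group. The means were 5243 ± 790 and 6658 ± 823 RPM (SD, n = 5; p = 0.0238, exact permutation test), while the edgeR log2 fold change of 0.25 ± 0.13 (SE), which is relative to the bulk of the other features, had an adjusted p of 0.514.

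For let-7c-1 the CD-F0 samples held 3175, 3198, 3401, 2789 and 2959 RPM and the HFD-F0 samples 4675, 5082, 3557, 3461 and 3066 RPM. HFD-F0 replicates 1 and 2 stood above the other samples, and HFD-F0 replicate 5 lay within the CD-F0 range. The means were 3104 ± 236 and 3968 ± 863 RPM (SD, n = 5; p = 0.0476, exact permutation test), with an edgeR log2 fold change of 0.25 ± 0.15 (SE, adjusted p = 0.584). With annotated reads in place of clean reads as the denominator the exact permutation p for let-7c-1 was 0.0635, and it was 0.0635 to 0.151 in 7 of the 10 exact tests that left out 1 sample. Without HFD-F0 replicate 2 the edgeR log2 fold change of let-7c-1 was 0.11.

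let-7b, which differs from let-7c by A17G and is known from the control of neural stem cell division, had 2674, 2391, 2595, 2171 and 2227 RPM in the CD-F0 samples and 3640, 4113, 2664, 2465 and 2132 RPM in the HFD-F0 samples. As for let-7c-1, HFD-F0 replicates 1 and 2 were the highest samples, and the other 3 HFD-F0 samples fell among or below the CD-F0 samples. The means were 2412 ± 221 and 3003 ± 837 RPM (SD, n = 5; p = 0.222, exact permutation test).

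let-7i, which targets Tlr4, had 1412, 1643, 1807, 1590 and 1426 RPM in the CD-F0 samples and 2166, 1903, 1903, 1593 and 1390 RPM in the HFD-F0 samples. The groups overlapped, and the means of 1576 ± 164 and 1791 ± 302 RPM (SD, n = 5) were the closest of the family relative to their size (p = 0.183, exact permutation test). miR-98 had 167, 272, 239, 239 and 223 RPM in the CD-F0 samples and 357, 298, 240, 292 and 230 RPM in the HFD-F0 samples. Its means were 228 ± 38.5 and 284 ± 51.2 RPM (SD, n = 5; exact permutation p = 0.0714). The edgeR log2 fold changes had 95% intervals of -0.18 to 0.61 for let-7b, -0.19 to 0.36 for let-7i and -0.11 to 0.55 for miR-98, and each interval held 0. So did the intervals of let-7c-1 (-0.08 to 0.59) and let-7g (-0.03 to 0.53).

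**Figure D2:**
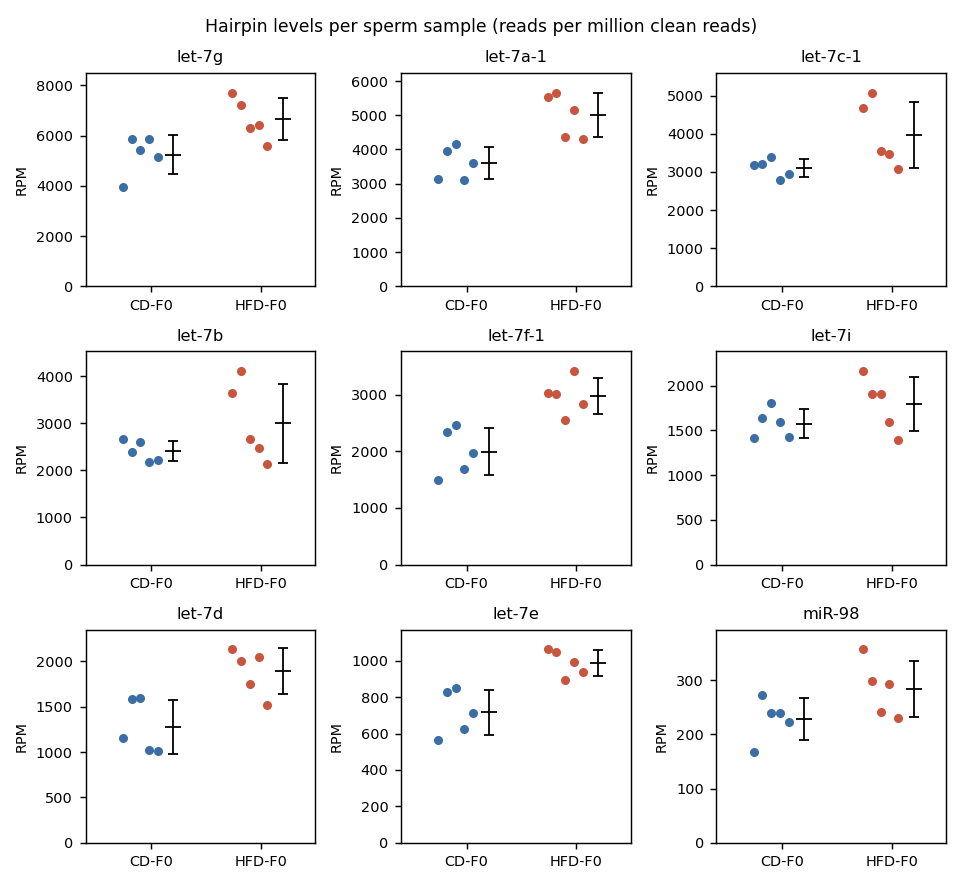
Level of each member in each sperm sample (RPM, linear axis from 0), with CD-F0 samples in blue, HFD-F0 samples in red, replicates 1 to 5 from left to right, and the mean with SD (n = 5) beside them. The groups of let-7a-1, let-7e and let-7f-1 are apart, those of the other members overlap, and HFD-F0 replicates 1 and 2 hold the highest values of let-7b and let-7c-1.

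Against the background of the other features, 0 of the 9 members passed the study's thresholds where 3.69% of all features and 2.84% of miRNA hairpins did. The number of features past these thresholds was 30 of 814, and 50 of 827 without CD-F0 replicate 5. With an unadjusted p at or under 0.05 taken as the call, 4 of 9 members were called, all higher in HFD-F0, where 9.64% of the 529 miRNA hairpins and 10.2% of all features were called. Calls with the higher level in HFD-F0 made up 4.91% of miRNA hairpins and 6.14% of all features. Among the 198 hairpins with a mean of at least 1000 reads, a class to which all members belong, this share was 8.59%. The calls behind these shares include the 4 members themselves and the copies let-7a-2 and let-7f-2. The log2 fold change was positive in 9 of 9 members, against 44.6% of miRNA hairpins and 47.5% of those with a mean of at least 1000 reads. All HFD-F0 samples were above all CD-F0 samples in RPM for 3 of 9 members and for 2.84% of miRNA hairpins. The 15 hairpins behind this share include those members and the copies let-7a-2 and let-7f-2. The share over all features was not counted, so this separation is not set against it. At an adjusted p of 0.05 the share of all features called was 0.123%, which was 1 feature and no miRNA hairpin. The median log2 fold change was 0.25 over the 9 members, -0.05 over the tested miRNA hairpins and -0.01 over all features. The members share reads of similar sequence and transcripts, so they are not independent of each other, and these counts are descriptions.

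**Figure D3:**
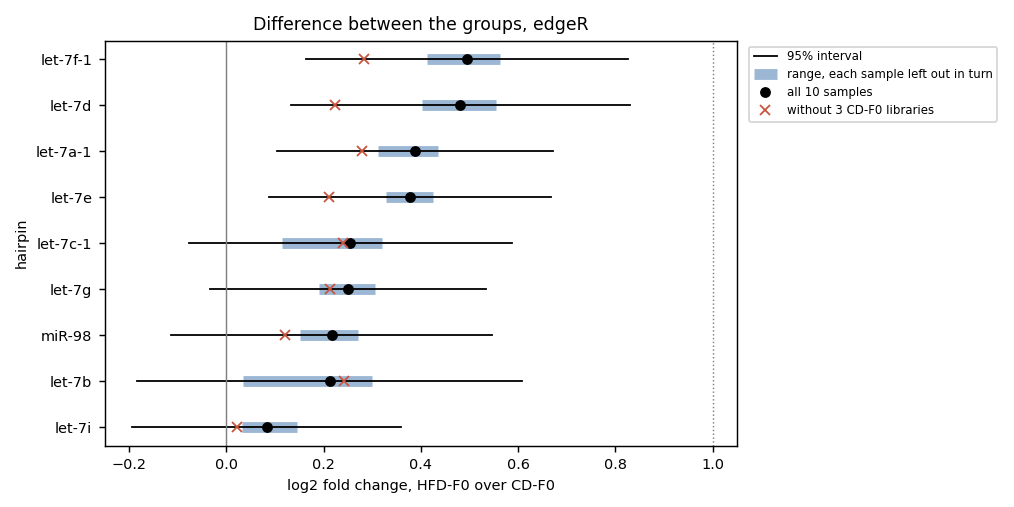
Log2 fold change of each member, HFD-F0 over CD-F0, from edgeR with all 10 samples (points) with its 95% interval (lines), the range when each sample was left out in turn (bars) and the value without the 3 CD-F0 libraries with the fewest genome-matched reads (crosses); the dotted line at 1 is the study's threshold. All points and crosses lie above 0, no interval reaches 1, and the crosses of let-7a-1, let-7d, let-7e, let-7f-1, let-7i and miR-98 lie below the bars.

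The CD-F0 libraries with fewer reads matched to the genome also held the lowest levels of the family. The sum of the 9 members was 17733 RPM in CD-F0 replicate 1, 19097 in replicate 4 and 19272 in replicate 5, which are the 3 libraries under 70% genome-matched reads, and 22060 and 22557 RPM in CD-F0 replicates 2 and 3. In the HFD-F0 group, with 73.3% to 74.7% matched, it was 30310, 30348, 24248, 25878 and 22028 RPM in replicates 1 to 5. A fit without those 3 CD-F0 libraries leaves 2 CD-F0 samples against 5. Its edgeR log2 fold changes were 0.28 for let-7a-1, 0.22 for let-7d, 0.21 for let-7e and 0.28 for let-7f-1, with adjusted p from 0.687 to 0.786. In this fit 0 of 9 members had an unadjusted p at or under 0.05. The share of all features with such a p was not counted, so the 0 is not set against it. The study's thresholds were passed by 35 of the 882 features in this fit. The log2 fold changes were 0.24 for let-7b, 0.24 for let-7c-1, 0.21 for let-7g, 0.12 for miR-98 and 0.02 for let-7i, so that of let-7b was higher than with all samples and all 9 were still positive. Since the libraries left out hold the 3 lowest sums of the CD-F0 group, leaving them out raises the mean sum of that group by construction. The part of the genome-matched share in the result was not tested.

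**Figure D4:**
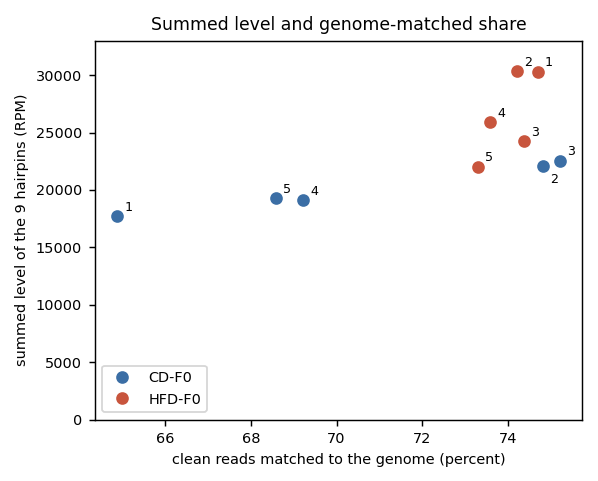
Summed level of the 9 members (RPM) against the share of clean reads matched to the genome (percent, axis not from 0) for the 5 CD-F0 samples (blue) and 5 HFD-F0 samples (red), numbered by replicate. The 3 CD-F0 samples under 70% hold the 3 lowest sums, and CD-F0 replicates 2 and 3 lie beside HFD-F0 replicate 5.

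Markers of other cells were looked at beside these levels. The epithelial list, the mir-200 family and mir-205, summed to 3969 to 6756 RPM in the CD-F0 group and 5520 to 9463 RPM in the HFD-F0 group, with a ratio of means of 1.25, and all 6 of its hairpins had the higher mean in the HFD-F0 group. The smooth muscle list summed to 21298 to 29187 and 15802 to 36230 RPM (ratio 1.12), with 5 of 6 hairpins higher in the HFD-F0 group. The blood and immune list summed to 3686 to 5534 and 3249 to 6033 RPM (ratio 1.06), with 6 of 7 higher there. These sums rest largely on mir-143 (25077 of 25898 RPM in CD-F0) and mir-146a (2565 of 4518 RPM). Single hairpins differed more, with ratios of 2.25 for mir-145a, 1.46 for mir-223 and 1.48 for the epithelial mir-200b. For mir-223 all 5 HFD-F0 samples were above all CD-F0 samples. The hairpins of the smooth muscle and blood lists with the lower mean in HFD-F0 were mir-1a-1 (0.989) and mir-451a (0.859). The ratio for the male germ line list was 0.958, with 6 of its 10 hairpins higher in the HFD-F0 group. Its most abundant hairpin, mir-449a, was lower there (ratio 0.789), and mir-191, with 4737 of the list's 18435 RPM in CD-F0, was higher (ratio 1.11). This list is not confined to germ cells, as mir-449a is also a miRNA of ciliated cells. The family's own sum had means of 20144 ± 2072 and 26562 ± 3700 RPM (SD, n = 5) and a ratio of 1.32, and the part of the other cells' RNA in it was not tested.

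Relative to miRNA reads alone the difference was smaller. The 9 members and the 3 copies together took 17.1% ± 1.46 of all miRNA reads in CD-F0 and 20.9% ± 2.01 in HFD-F0 samples (SD, n = 5), a ratio of 1.22, against a ratio of 1.34 in RPM. In single samples the share ranged from 14.9% in CD-F0 replicate 1 to 23.3% in HFD-F0 replicate 2, and HFD-F0 replicate 1, the sample with most miRNA reads, had 18.6%, below the 18.8% of CD-F0 replicate 2.

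The make-up of the family reads was compared next. With the copies added, let-7a held 24.6% ± 0.997 of the family reads in the CD-F0 group and 25.8% ± 0.879 in the HFD-F0 group (SD, n = 5), let-7c 21.9% ± 1.89 and 20.7% ± 1.91, and let-7g 18.1% ± 2.47 and 17.3% ± 0.701. let-7f held 13.9% ± 1.49 and 15.8% ± 2.09, let-7b 8.40% ± 1.15 and 7.66% ± 1.19, and let-7d 4.37% ± 0.631 and 4.90% ± 0.332. The share of let-7i was 5.51%, 5.19%, 5.52%, 5.94% and 5.11% in the CD-F0 samples and 4.96%, 4.30%, 5.46%, 4.19% and 4.29% in the HFD-F0 samples, so 4 of the 5 HFD-F0 samples lay below the CD-F0 range. Its means were 5.45% and 4.64%, with p = 0.0317 in an exact permutation test, unadjusted and 1 of 9 such tests on the shares, of which the others gave p from 0.103 to 0.532. These tests were chosen after the data were seen. let-7e and miR-98 took 2.46% and 0.787% in the CD-F0 group and 2.58% and 0.732% in the HFD-F0 group. These shares add up to a fixed total, and a higher share of 1 name lowers the others.

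**Figure D5:**
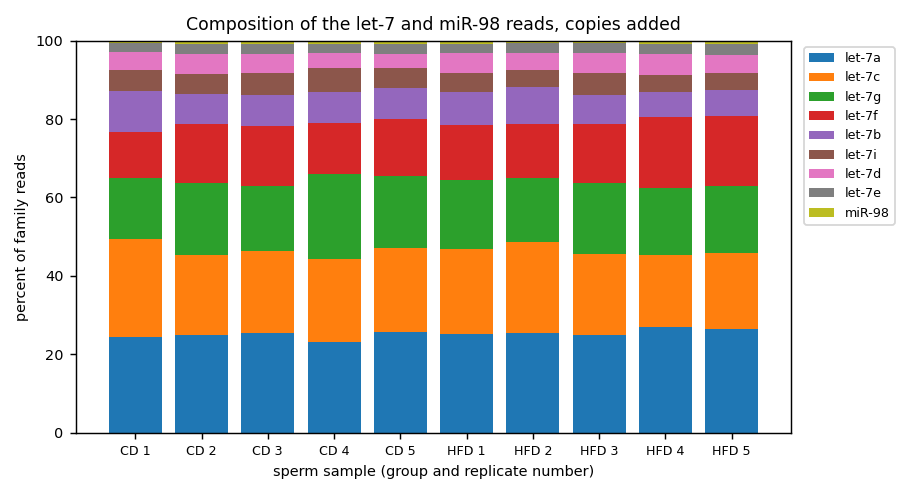
Share of each mature name in the family reads (percent, stacked to 100) in each of the 10 sperm samples, with the copies numbered -2 added to let-7a, let-7c and let-7f. The order let-7a, let-7c, let-7g, let-7f is seen in 6 of the 10 samples, and let-7f is widest in HFD-F0 replicates 4 and 5.

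Within the family, members moved together over the samples to different degrees. The Pearson r of log2 levels over the 10 samples was 0.978 (Spearman rho 0.964) for let-7e and let-7f-1, 0.970 (0.830) for let-7b and let-7c-1, 0.964 (0.964) for let-7a-1 and let-7e, and 0.950 (0.915) for let-7g and miR-98. It was lowest for let-7b and let-7f-1, at 0.406 (0.297), and the ratio of let-7f-1 to let-7b ranged from 0.560 in CD-F0 replicate 1 to 1.39 in HFD-F0 replicate 4. These values share the library, its depth and the diet groups, and they are given as a description.

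The 4 pairs of members that differ by 1 base had a median r of 0.952, the 10 pairs with 2 differences 0.774, the 11 pairs with 3 differences 0.780 and the 9 pairs with 4 differences 0.735. The alignment allowed 1 mismatch, so reads of members that differ by 1 base can be assigned to either. Whether such assignment bears on these values of r was not tested. The pairs let-7e with let-7f-1 (2 differences) and let-7g with miR-98 (4 differences) were among the closest and are on different chromosomes. The 3 members of the chromosome 13 cluster had r of 0.939 (let-7a-1 and let-7f-1), 0.932 (let-7a-1 and let-7d) and 0.895 (let-7d and let-7f-1), and let-7f-1, let-7d and let-7a-1 had the highest log2 fold changes of the family. This is not particular to the cluster. let-7e, on chromosome 17, had r of 0.964 with let-7a-1 and 0.978 with let-7f-1. Its log2 fold change was 0.38, against 0.39 for let-7a-1. Reads of let-7a and let-7f are split with copies on chromosomes 9 and X and cannot be placed at chromosome 13.

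Apart from the copies, let-7j was close to another hairpin, let-7i. The reads of let-7j were 0.723 to 0.740 of those of let-7i in the 5 CD-F0 samples and 0.675 to 0.724 in the 5 HFD-F0 samples, and r with let-7i was 0.969 (Spearman rho 0.976). The ratio had a mean of 0.734 in the CD-F0 and 0.692 in the HFD-F0 samples (p = 0.0159, exact permutation test, unadjusted, 1 of 4 ratios tested after the data were seen). Its level was 1156 ± 124 RPM in CD-F0 and 1244 ± 244 RPM in HFD-F0 samples (SD, n = 5), and its edgeR log2 fold change was 0.00 ± 0.13 (SE, adjusted p = 0.999). As let-7j and let-7i differ by G8U over the length of let-7i, whether reads listed as let-7j came from let-7i was not tested.

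The copies, the other let-7 names, mir-202 and the hairpins in the same genomic clusters made a list of 12, of which 0 passed the study's thresholds. The copies followed their members, with log2 fold changes of 0.39 for let-7a-2, 0.26 for let-7c-2 and 0.49 for let-7f-2, since they hold the same reads. The log2 fold change of let-7k, a hairpin at 47.0 ± 13.9 and 52.9 ± 18.4 RPM (SD, n = 5), was 0.06, and that of mir-202 was 0.26.

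The neighbours of let-7c-1, let-7e and let-7a-2 belong to the miR-99/100 family, known for targeting mTOR, and to the miR-125 family, the mammalian form of worm lin-4. mir-99a, mir-99b and mir-100 had log2 fold changes of 0.15, 0.16 and 0.13. The miR-125 hairpins had larger values with larger errors: 0.87 ± 0.35 (SE) for mir-125b-1 (adjusted p = 0.407), 0.74 ± 0.32 for mir-125b-2 (adjusted p = 0.430) and 0.75 ± 0.36 for mir-125a (adjusted p = 0.477). Of the 12, the hairpins with an unadjusted p at or under 0.05 were let-7a-2, let-7f-2, mir-125b-1 and mir-125b-2, all higher in the HFD-F0 group. Over all features, 10.2% had such a p, and 6.14% had it with the higher level in HFD-F0. These hairpins are not independent calls. let-7a-2 and let-7f-2 hold the reads of members, and mir-125b-1 and mir-125b-2 carry the same mature miR-125b-5p.

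Outside the let-7 names, 366 hairpins with a mean of at least 100 reads were compared with the summed family over the 10 samples on the log2 CPM scale. The most alike were mir-30c-2 with a Pearson r of 0.774 (Spearman rho 0.758), mir-30c-1 with 0.768 (0.721), the myeloid miRNA mir-223 with 0.761 (0.661), mir-365-1 with 0.727 (0.758) and mir-365-2 with 0.678 (0.539). The median r over the 366 was -0.03, and none was over 0.8. mir-30c-2 had 214 ± 73.9 and 361 ± 36.2 RPM, and mir-223 had 362 ± 13.7 and 528 ± 57.8 RPM (SD, n = 5). These correlations include the difference between the groups and the shared libraries.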

How the data were processed

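Sperm RNA of 18 to 30 nt from 5 CD-F0 and 5 HFD-F0 samples was analysed. The authors deposited estimated counts per annotated feature, made with SPORTS, which aligns clean reads with Bowtie, allowing 1 mismatch, to mm10 and small RNA sets and splits reads that fit several features. The submitters' processing notes name Bowtie and mm10. Whether reads with the same molecular identifier were collapsed is not given in the sources used here. Reads matched and not matched to the genome were added and divided by clean reads for RPM.

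Counts were rounded, filtered with filterByExpr and normalized with TMM over all features, and tested in one fit with edgeR 4.0.16 (R 4.3.3), with Benjamini-Hochberg adjustment over the 814 features tested. DESeq2 1.42.0 was an alternative. RPM values were compared by exact permutation tests (Python 3.11.15, scipy 1.17.1), 1 for each member, with no adjustment over the members. The edgeR fit, not the permutation test, was checked on simulated counts. Sequences came from RefSeq, matched by miRNA name.

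The members and lists were chosen with earlier results of these data known. The text names every member and copy, the other let-7 names, the 5 hairpins most correlated with the summed family and the 3 most abundant hairpins. Other genes of the list of relatives were to be named if past the study's thresholds; the cluster neighbours and mir-202 are given for completeness, as is miR-1961, noticed for its seed after the values were seen. Shares of family reads, ratios of hairpins and correlations between members were chosen after the data were seen. The shares and 4 ratios were compared by exact permutation tests without adjustment, and the correlations were not tested. The labels do not state whether replicate numbers pair the samples, and the main tests treated the samples as unpaired.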

Additional observations from a re-analysis of the deposited data

Results flagged for a closer look

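Of 38 groups of 5 values examined for a sample far from the others, 2 held one, and chance flags about 1 in 20 such groups. In CD-F0 replicate 1, let-7b made up 10.4% of the family reads with copies added, against 7.55% to 8.11% in the other CD-F0 samples. In the same library let-7c made up 25.2%, against 20.5% to 21.5%. The sequences of let-7b and let-7c differ by 1 base, and both values come from 1 library, the one with the lowest share of genome-matched reads (64.9%).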

How the results depend on the processing

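The number of members past the study's thresholds and the number with adjusted p at or under 0.05 were 0 in each of the 19 alternatives. The number with unadjusted p at or under 0.05, 4 with all samples, was 4 to 4 when each sample was left out in turn, 4 with DESeq2, no filter on low counts, at least 10 reads in every sample, genome-matched reads, copies added or the replicate block, and 6 with clean reads as library size or miRNA hairpins only, which added let-7c-1 and let-7g. It was 0 without the 3 CD-F0 libraries under 70% genome-matched reads, an alternative chosen after seeing the data, its 70% limit included. It replaced one that left out CD-F0 replicates 1 and 4, picked because the members were low there, and the libraries it leaves out include both. That fit holds 2 CD-F0 samples, so fewer samples bear on its p-values, and the cause of the smaller fold changes was not tested. No log2 fold change was reversed. Adjusted p over the alternatives ranged from 0.187 to 0.687 for let-7a-1, 0.188 to 0.786 for let-7d, 0.233 to 0.784 for let-7e and 0.166 to 0.687 for let-7f-1. With the replicate block the log2 fold changes of these members, in the same order, were 0.38, 0.49, 0.38 and 0.50. The labels do not state whether the numbers pair the samples. Deviations of samples with the same number had correlations from -0.27 to 0.28, and 4 of 10 samples were closest to their own number, which does not settle it. In the exact permutation tests of RPM, 108 values kept their side of 0.05, 15 lost it, among them let-7c-1 in 9 settings, let-7g relative to miRNA reads (p = 0.119) and 6 members without the 3 libraries, and 3 gained it, let-7b, let-7i and miR-98 without HFD-F0 replicate 5. The summed level was higher in the HFD-F0 group by a ratio of 1.31 with annotated reads and 1.20 with miRNA reads as denominator. Over all features, adjusted p at or under 0.05 was reached by 1 feature, by 13 with DESeq2 and by 5 with clean reads as library size, where the median log2 fold change of all features was 0.09, and the study's thresholds by 30, and by 93 without a filter and 19 with at least 10 reads in every sample, and by 22 to 50 when 1 sample was left out.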

Other observations

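miR-1961, which has the let-7 seed and no other relation to the family by name, was close to absent, with means of 0.0930 RPM in the CD-F0 group and 0.0754 RPM in the HFD-F0 group. The arms that differ between copies are not told apart by these files, since reads are listed per hairpin.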
